A study of Mus musculus with 62 samples.

Results

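The 10 genes described here encode the enzymes that break down the branched-chain amino acids, and the kinase and phosphatase that control the key step. They are Bcat2, Bckdha, Bckdhb, Dbt, Bckdk, Ppm1k, Ivd, Mccc1, Hibadh and Hibch. They were chosen by symbol from a table of 47643 genes, and all 10 were found in it. The rule uses no measured value, but the set was chosen with earlier results of these data known. Gene expression had been profiled in tibialis anterior, a hind limb muscle, from female mice aged 2 months. Mice bore melanoma cells described as cachectic (CAC) or as non-cachectic (NCAC), or had been mock injected (Con), and tissue was collected after 2, 4, 6 and 8 weeks. The 12 groups of treatment and week held 62 libraries, 5 in each group except CAC at 8 weeks with 7. The labels of single samples give the strain as C57BL6/J, while the design text names NCI Ath/nude mice, so which mice were used is not settled, and no other allele or agent is labelled. The protocol also mentions a muscle time point after injection of LLC cells that matches none of these groups. The libraries are called biological replicates in the protocol, with no statement of which came from which animal.

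Leucine, isoleucine and valine are unusual among amino acids in that skeletal muscle, rather than liver, performs much of the first step of their breakdown. In mitochondria, an aminotransferase moves their nitrogen to glutamate, and the branched-chain ketoacid dehydrogenase then commits the carbon skeleton irreversibly to oxidation. A kinase switches this dehydrogenase off by phosphorylating it, a phosphatase switches it on, and separate enzymes finish each of the resulting acyl-CoA chains. Muscle wasting releases these amino acids from protein.

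Values were TPM, in which each gene is a share of its library scaled by transcript length, and each library sums to 1000000. Estimated depth was 46.3 to 54.1 times 1000000 reads per library, and the lowest estimate for any of the 10 genes in any library was 360 reads, for Ppm1k, which leaves little room for counting error. Muscle fibre markers summed to 70045 to 123733 TPM in CAC muscle and 72295 to 120845 TPM in Con muscle at 8 weeks, and the slow myosin Myh7 was at most 12 TPM in any library, as in a fast muscle. The first principal component of all libraries held 49.7% of the variance, and the 3 libraries farthest out on it were CAC replicate 1 at 6 weeks and CAC replicates 1 and 6 at 8 weeks. Results that rest on these 3 are given with and without them. CAC replicate 3 at 8 weeks held 14744 TPM of red blood cell markers. Con replicates 1 and 2 at 2 weeks and Con replicate 3 at 4 weeks held over 100 TPM of the liver transcript Alb, and leaving these out changed no count of members called.

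A shift of the whole table bears on every comparison with CAC at 6 and 8 weeks. Differences were tested with limma on log2(TPM + 1) over 11107 genes that averaged 1 TPM or more, and calls were made where the Benjamini-Hochberg adjusted p was under 0.05. The median log2 difference of all these genes between CAC and Con muscle was 0.13 at 2 weeks, 0.11 at 4 weeks, 0.38 at 6 weeks and 0.46 at 8 weeks. At the same time the share of TPM from mitochondrially encoded transcripts was 34.7% to 41.5% in CAC muscle (median 36.8%) and 39.9% to 58.9% in Con muscle (median 48.7%) at 8 weeks. At 6 weeks it was 33.5% to 41.3% in CAC muscle and 44.0% to 51.7% in Con muscle, without overlap. Each comparison is therefore given for the deposited TPM and after rescaling each library by a median-of-ratios size factor, which sets the typical gene to no change.

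In CAC muscle the 10 genes kept close to their Con levels while the typical gene was higher. At 8 weeks only Bckdhb was called, and it was higher by a log2 difference of 0.30. That is 1 of 10 genes against 74.5% of all genes tested, of which 69.4% were higher and 5.09% lower. At 6 weeks none of the 10 was called (limma, 1 at an unadjusted p under 0.05), against a background of 64% of all genes. The median log2 difference of the 10 genes was -0.07 at 6 weeks and -0.00 at 8 weeks, and all 10 lay below the median of all genes at both times. After rescaling, 8 of the 10 were called lower at 6 weeks and 8 at 8 weeks, against 18.1% and 24.2% of all genes lower. The median log2 difference was then -0.47 and -0.48. With the mitochondrially encoded genes left out of the total instead, 4 and 5 of the 10 were called lower, against 8.1% and 12.3% of all genes. The medians of the 10 were -0.30 and -0.28. On that scale the median of all genes was still above 0, at 0.20 at 6 weeks and 0.23 at 8 weeks.

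**Figure D1:**
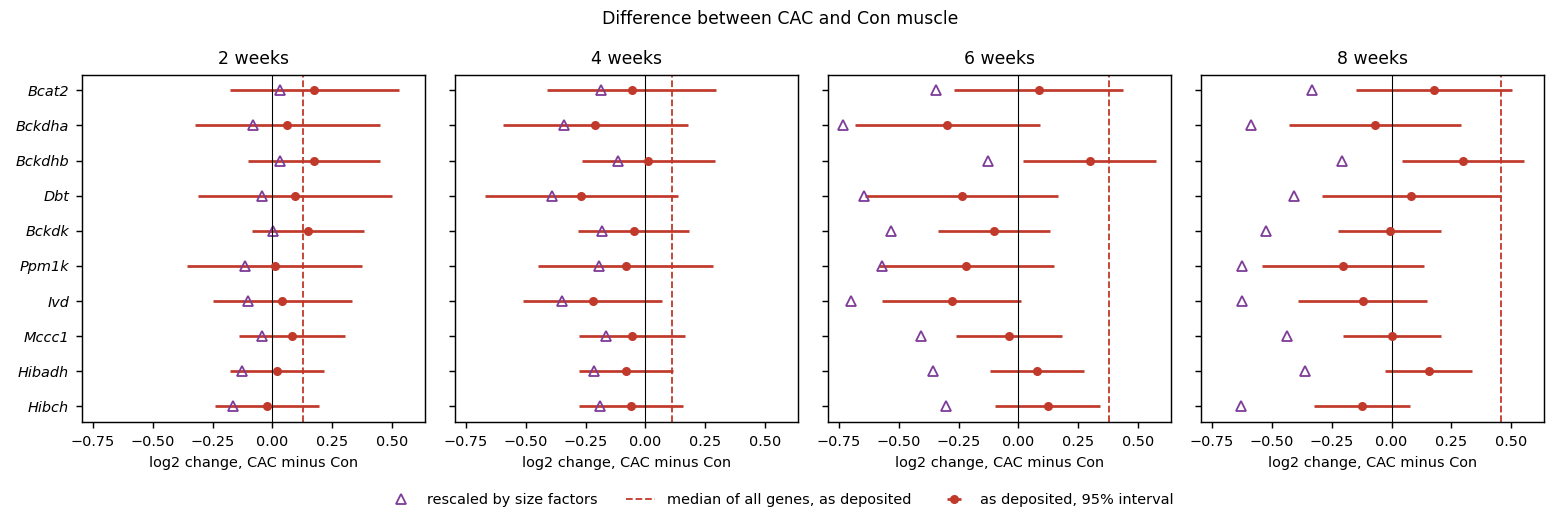
Log2 difference of each of the 10 genes between CAC and Con muscle at 2, 4, 6 and 8 weeks (x axis, CAC minus Con on the log2(TPM + 1) scale). Filled circles with bars are the deposited TPM with 95% intervals, open triangles are values rescaled by size factors, and the dashed line is the median of all genes. At 6 and 8 weeks all 10 circles lie left of the dashed line, and all 10 triangles lie left of 0.

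At 2 and 4 weeks the 10 genes showed no difference that passed the test. At 2 weeks none of the 10 genes was called between CAC and Con muscle (limma, 0 at an unadjusted p under 0.05), against 0.054% of all genes. The same held at 4 weeks (0 unadjusted), against 0.936% of all genes, where all 10 differences lay below the median of all genes. Between NCAC and Con muscle none of the 10 was called at any week (limma, 0 at an unadjusted p under 0.05 in each week). The background there was 0.162% of all genes at 2 weeks, 0% at 4 and 6 weeks and 0.009% at 8 weeks. The log2 differences between NCAC and Con ran from -0.23 for Dbt at 6 weeks (95% interval -0.63 to 0.17) to 0.24 for Bckdha at 8 weeks (-0.15 to 0.62), so changes of that size were not detectable.

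As shares of the library, Bckdha was the most abundant of the 10 at 153 ± 32.6 TPM (mean ± SD over 62 libraries). Hibadh followed at 130 ± 14.1 TPM and Bckdk at 93.3 ± 11 TPM. In the middle stood Bcat2 at 40.5 ± 7.99, Ivd at 33.8 ± 5.80, Hibch at 31.4 ± 3.65 and Bckdhb at 29.3 ± 5.67 TPM. Dbt averaged 15.8 ± 3.68 TPM, and the lowest were Mccc1 at 5.77 ± 0.744 and Ppm1k at 5.58 ± 1.36 TPM. TPM is scaled by length, so these levels can be set beside each other. The highest group mean was between 1.14 times the lowest, for Hibadh, and 1.42 times, for Bckdhb. In the order of the 12 group means of each gene, 0 of the 11 gaps between neighbours was larger than the larger SD of the neighbouring groups, and this held for each of the 10 genes. Ordering makes such gaps small, and the SD is that of single libraries, so this cannot show whether groups far apart in the order differ.

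**Figure D2:**
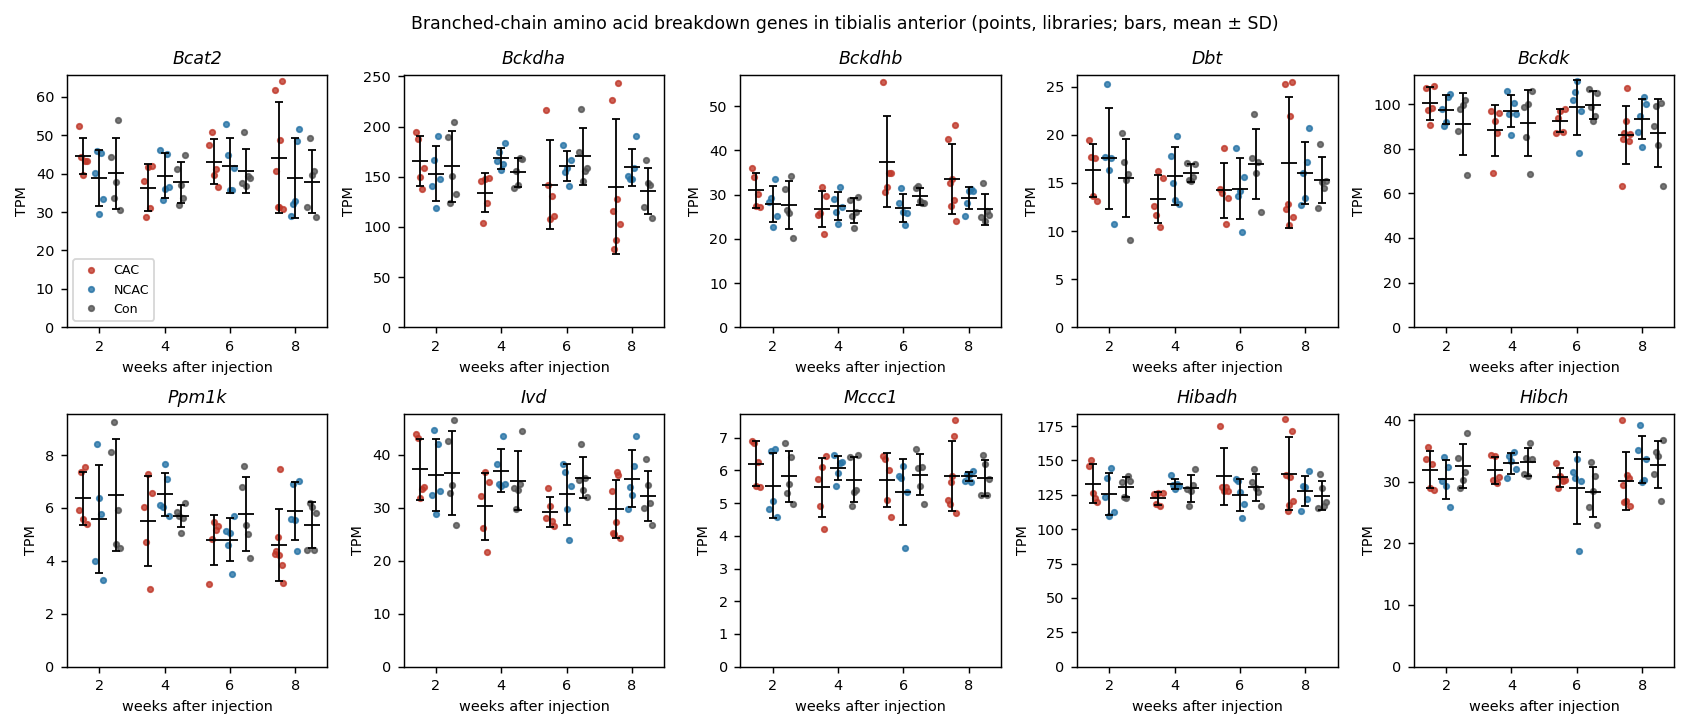
TPM of each of the 10 genes (y axis, from 0) by weeks after injection (x axis), with 1 point per library and the mean ± SD of each group of CAC, NCAC and Con muscle. The groups overlap at most times, and single CAC libraries stand above the rest at 6 and 8 weeks for Bckdha, Bckdhb and Hibadh.

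Bcat2, the mitochondrial aminotransferase that starts the pathway, lies on chromosome 7 (mm10, chr7:45570153-45589711, plus strand). At 8 weeks it was 30.8 TPM in the lowest, 40.6 in the median and 64.1 in the highest CAC library. It was 28.9, 32.2, 33.0, 48.6 and 51.5 TPM in NCAC muscle, and 31.3, 49.2, 39.6, 40.7 and 28.7 TPM in Con muscle. The groups overlapped, and the CAC libraries reached both near the bottom and above the top of the Con range. At 6 weeks the values were 47.4, 50.9, 39.7, 41.3 and 36.6 TPM in CAC muscle and 37.6, 50.8, 36.7, 39.5 and 38.8 TPM in Con muscle, also overlapping. Bcat2 did not pass the test at either time, with log2 differences of 0.08 (SE 0.18, adjusted p = 0.687 by limma) at 6 weeks and 0.18 (SE 0.16, adjusted p = 0.321) at 8 weeks. After rescaling they were -0.34 (adjusted p = 0.0811) and -0.33 (adjusted p = 0.0538), so Bcat2 was one of the 2 genes not called lower at 8 weeks on that scale.

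The dehydrogenase has 3 catalytic parts. Bckdha and Bckdhb encode the alpha and beta subunits of E1, the decarboxylase that is the target of the kinase, and Dbt encodes E2, the transacylase core. The third part, E3, is encoded by Dld and shared with other dehydrogenases. Both E1 subunits are needed for the same assembly, and the 250 bases before their start sites are shown here because their ratio, described further on, was higher in the CAC libraries of 6 weeks. The pair was chosen after those values had been seen. They were taken from RefSeq (GRCm38.p6, the assembly of mm10), and are written 5′ to 3′ on the strand of the gene, in lower case with matches to GGGGCGGGG or its reverse complement CCCCGCCCC, a GC box, in capitals.
Bckdha, chr7:25658762-25659011, minus strand: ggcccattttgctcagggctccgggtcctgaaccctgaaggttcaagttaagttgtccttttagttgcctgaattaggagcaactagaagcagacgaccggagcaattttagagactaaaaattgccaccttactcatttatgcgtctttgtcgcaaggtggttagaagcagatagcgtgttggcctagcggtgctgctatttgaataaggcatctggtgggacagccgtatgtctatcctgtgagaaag
Bckdhb, chr9:83924887-83925136, plus strand: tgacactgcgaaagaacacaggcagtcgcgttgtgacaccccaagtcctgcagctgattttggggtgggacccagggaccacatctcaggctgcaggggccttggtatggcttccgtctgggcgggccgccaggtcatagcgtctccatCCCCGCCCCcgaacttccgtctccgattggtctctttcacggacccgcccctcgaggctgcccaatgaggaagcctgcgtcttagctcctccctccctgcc
The Bckdhb window holds 1 match, which begins 101 bases before the start site, and the Bckdha window holds none. The annotations differ on where Bckdha begins: 220 of the 250 bases of its window lie inside the GENCODE M21 gene, while 0 of the 250 bases of the Bckdhb window do, so the windows may not stand at the same place relative to transcription. The GC content is 63.2% in the Bckdhb window and 47.6% in the Bckdha window. A match on either strand was found in 10.4% of 32851 such windows, and among the 10 genes in Hibch, Mccc1 and Bckdhb, of 9 with an entry. Bckdhb has a second RefSeq window at chr9:83948531-83948780 with no match. The match is a description of the letters in these windows.

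Bckdhb (chr9:83925145-84124240, plus strand) was the only one of the 10 that was called higher in CAC than in Con muscle. At 8 weeks it was 24.1 TPM in the lowest, 32.7 in the median and 45.8 in the highest CAC library, against 25.3, 28.1, 30.8, 31.2 and 30.8 TPM in NCAC muscle and 24.9, 32.6, 23.9, 26.3 and 25.4 TPM in Con muscle. The CAC range contained the Con range apart from 1 Con library at 23.9 TPM. The mean was 1.26-fold that of Con, with a log2 difference of 0.30 (SE 0.13, 95% interval 0.04 to 0.55, adjusted p = 0.0321 by limma). This call rested on single libraries: leaving out each library in turn gave 0.22 to 0.37, and the call was lost without CAC replicate 1 or 6 or Con replicate 1, 3, 4 or 5. Without the 3 libraries that stand apart the difference was 0.13 (adjusted p = 0.293), and after rescaling it was -0.21 (adjusted p = 0.11).

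At 6 weeks Bckdhb was 55.4, 30.5, 31.7, 34.9 and 34.9 TPM in CAC muscle. It was 28.0, 31.6, 26.0, 23.1 and 25.7 TPM in NCAC muscle, and 31.6, 31.9, 28.6, 28.0 and 28.1 TPM in Con muscle. CAC replicate 1 stood far above the other libraries, and the remaining 4 CAC libraries overlapped the top of both other groups. Bckdhb was higher in CAC than in NCAC muscle by 0.44 (SE 0.14, adjusted p = 0.00486 by limma), the only one of the 10 called in that comparison, against 67.7% of all genes. Without CAC replicate 1 alone it was 0.29 and not called (adjusted p = 0.0573), and without all 3 libraries that stand apart it was 0.29 (adjusted p = 0.0312). After rescaling it was -0.04. Against Con the log2 difference was 0.30 (SE 0.14, adjusted p = 0.0552), which did not pass.

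Bckdha (chr7:25629946-25658981, minus strand) split the CAC libraries. At 8 weeks it was 226, 116, 77.8, 87.2, 128, 243 and 102 TPM in the 7 CAC libraries. It was 151, 148, 148, 159 and 191 TPM in NCAC muscle, and 119, 167, 144, 142 and 108 TPM in Con muscle. Of the CAC libraries 2 lay above every Con library, 3 below every Con library and 2 within the Con range. The coefficient of variation, the SD as a percentage of the mean, was 47.8% in CAC muscle, 11.4% in NCAC muscle and 16.8% in Con muscle. The log2 difference from Con was -0.07 (SE 0.18, adjusted p = 0.735 by limma). After rescaling it was -0.59 (adjusted p = 0.0032).

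At 6 weeks Bckdha was 217, 142, 108, 131 and 111 TPM in CAC muscle. It was 182, 155, 159, 141 and 167 TPM in NCAC muscle, and 175, 218, 145, 156 and 159 TPM in Con muscle. The 4 CAC libraries other than replicate 1 lay below every Con library. The difference from Con was -0.30 (SE 0.19, adjusted p = 0.171 by limma), and -0.73 after rescaling (adjusted p = 0.00152). Without the 3 libraries that stand apart, Bckdha was called lower than Con on the deposited scale, by -0.46 at 6 weeks (adjusted p = 0.00618) and -0.42 at 8 weeks (adjusted p = 0.0063). It was then the only one of the 10 called at each of these times, against 2.64% and 3.02% of all genes lower.

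Dbt (chr3:116513070-116549981, plus strand) was 10.6 TPM in the lowest, 12.8 in the median and 25.4 in the highest CAC library at 8 weeks. It was 12.7, 16.1, 13.4, 17.1 and 20.7 TPM in NCAC muscle, and 12.4, 19.0, 15.1, 14.5 and 15.2 TPM in Con muscle. The coefficient of variation was 39.6% in CAC muscle, 19.9% in NCAC muscle and 15.7% in Con muscle, and the CAC range contained the Con range. The log2 differences from Con were -0.24 at 6 weeks (SE 0.20, adjusted p = 0.299 by limma) and 0.08 at 8 weeks (SE 0.19, adjusted p = 0.694). After rescaling they were -0.64 (adjusted p = 0.00471) and -0.41 (adjusted p = 0.0393). The third component, Dld, was lower in CAC than in Con muscle at 8 weeks, at 231 ± 20.4 TPM (SD, n = 7) and 280 ± 14.3 TPM (SD, n = 5), a log2 difference of -0.28 (adjusted p = 0.00135 by limma).

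The ratio of the E1 subunits within a library does not depend on the total of that library. Bckdhb over Bckdha was 0.255, 0.215, 0.293, 0.266 and 0.314 in CAC muscle at 6 weeks. It was 0.154, 0.204, 0.163, 0.163 and 0.154 in NCAC muscle, and 0.180, 0.146, 0.197, 0.180 and 0.177 in Con muscle. All 5 CAC libraries lay above all NCAC and all Con libraries, CAC replicate 1 included. The mean log2 ratio in CAC muscle was 0.60 above that of Con and 0.68 above that of NCAC muscle. This ratio was chosen after its values had been seen, so its values are a description with no test.

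At 8 weeks the same ratio ran from 0.188 to 0.383 in CAC muscle (median 0.235), with means of 0.265 ± 0.078 in CAC (SD, n = 7), 0.185 ± 0.0196 in NCAC and 0.198 ± 0.0255 in Con muscle (SD, n = 5 each). The groups overlapped, and the mean log2 ratio in CAC muscle was 0.38 above that of Con and 0.48 above that of NCAC muscle. At 2 weeks the means were 0.188 in CAC, 0.183 in NCAC and 0.174 in Con muscle, and at 4 weeks 0.201 in CAC, 0.163 in NCAC and 0.172 in Con muscle. Bckdha shares 1171 exon bases with B3gnt8 on the opposite strand, which averaged 0.194 TPM with at most 0.363 TPM in any library.

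**Figure D3:**
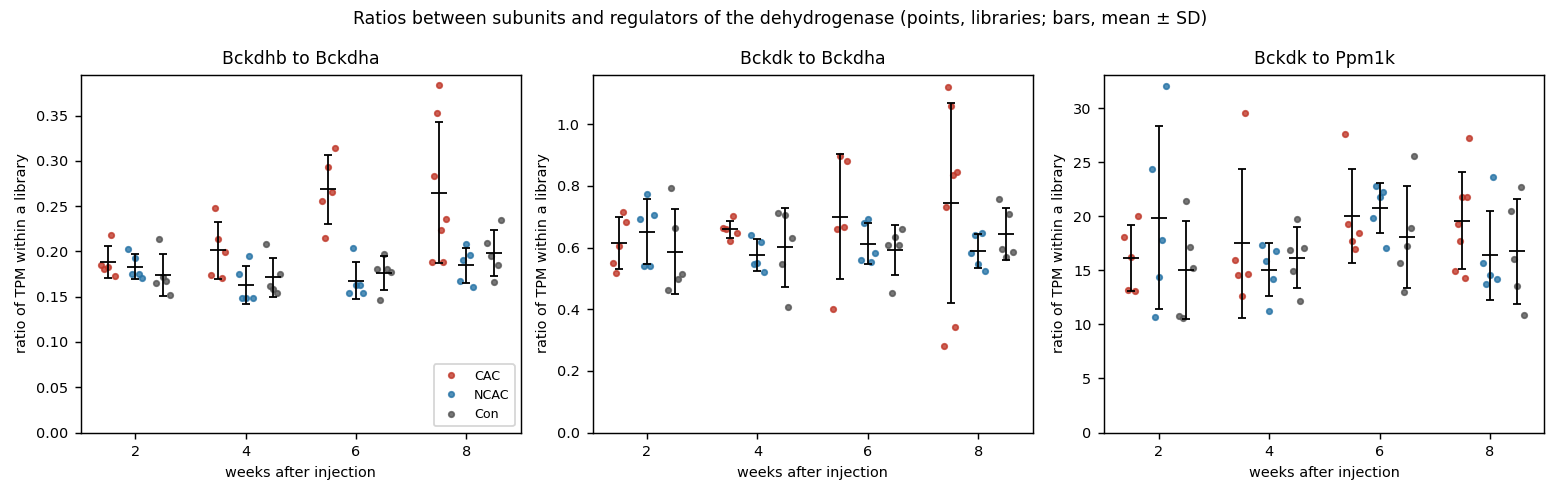
Ratio of TPM within a library (y axis, from 0) by weeks after injection (x axis) for 3 pairs of genes, with 1 point per library and the mean ± SD of CAC, NCAC and Con muscle. For Bckdhb over Bckdha the 5 CAC libraries at 6 weeks lie between 0.215 and 0.314, above all 10 NCAC and Con libraries of that week.

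The regulators were next. Bckdk (chr7:127904082-127910221, plus strand), the inhibiting kinase, was 63.4 TPM in the lowest, 86.6 in the median and 107 in the highest CAC library at 8 weeks. It was 87.6, 94.6, 81.0, 103 and 100 TPM in NCAC muscle, and 90.4, 99.3, 81.8, 101 and 63.4 TPM in Con muscle. The groups overlapped fully, and the log2 difference from Con was -0.01 (SE 0.11, 95% interval -0.22 to 0.21, adjusted p = 0.956 by limma). At 6 weeks it was -0.10 (SE 0.12, adjusted p = 0.442). After rescaling it was called lower at both times, by -0.53 (adjusted p = 0.000158) and -0.52 (adjusted p = 2.84e-05).

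Ppm1k (chr6:57506502-57535468, minus strand), the activating phosphatase, had its lowest group mean in CAC muscle at 8 weeks, 4.61 TPM. The 7 CAC libraries were at 4.24, 4.37, 4.91, 4.23, 7.48, 3.83 and 3.18 TPM. NCAC libraries were at 5.57, 6.89, 5.55, 4.37 and 7.02 TPM, and Con libraries at 4.40, 6.17, 6.02, 4.42 and 5.81 TPM. Of the 7 CAC libraries 5 lay below every Con library, while replicate 5 lay above them all. The log2 differences of -0.20 from Con (SE 0.17, adjusted p = 0.27 by limma) and -0.31 from NCAC (SE 0.17, adjusted p = 0.091) did not pass. After rescaling the difference from Con was -0.62 (adjusted p = 0.00297).

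For the balance of kinase and phosphatase no difference passed the test. Bckdk over Ppm1k averaged 19.6 ± 4.5 in CAC muscle at 8 weeks (SD, n = 7), 16.4 ± 4.10 in NCAC and 16.8 ± 4.87 in Con muscle (SD, n = 5 each). Bckdk over Bckdha, kinase to substrate, averaged 0.745 ± 0.326 in CAC muscle with a range of 0.280 to 1.12, against 0.588 ± 0.0555 in NCAC and 0.643 ± 0.0843 in Con muscle. Of 16 exact permutation tests on these 2 ratios over the 4 weeks, none passed after adjustment, and the lowest adjusted p was 0.254. The lowest unadjusted value was for kinase to substrate between CAC and NCAC muscle at 4 weeks, a log2 difference of 0.20 (exact permutation p = 0.0159). With 5 libraries against 5, a single test can reach at best p = 0.0079 (exact permutation, two-sided), which alone would be 0.127 after adjustment over 16 tests, so a miss at 2, 4 or 6 weeks says little. With 7 against 5 at 8 weeks the best is 0.0025, or 0.0404 adjusted.

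Ivd and Mccc1 belong to the leucine branch and follow the dehydrogenase. Ivd (chr2:118861954-118882909, plus strand) encodes isovaleryl-CoA dehydrogenase. At 6 weeks it was 28.0, 33.8, 30.3, 27.4 and 26.5 TPM in CAC muscle, against 38.2, 36.8, 29.7, 23.9 and 34.0 TPM in NCAC muscle and 35.3, 42.1, 33.3, 35.6 and 32 TPM in Con muscle. Of the 5 CAC libraries 4 lay below every Con library. The log2 difference from Con was -0.28 (SE 0.14, adjusted p = 0.0854 by limma) and missed the threshold. At 8 weeks Ivd was 24.3 TPM in the lowest, 27.4 in the median and 36.7 in the highest CAC library, against 29.8, 34.0, 32.3, 37.9 and 43.6 TPM in NCAC muscle and 29.9, 39.2, 34.3, 31.0 and 26.8 TPM in Con muscle. The difference from Con was -0.12 (SE 0.13, adjusted p = 0.415) and that from NCAC -0.26 (SE 0.13, adjusted p = 0.0811). After rescaling Ivd was lower than Con by -0.70 at 6 weeks (adjusted p = 9.46e-05) and -0.62 at 8 weeks (adjusted p = 6.4e-05).

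Mccc1 (chr3:35959312-36000678, minus strand), the biotin-carrying subunit of methylcrotonyl-CoA carboxylase, was 4.70 TPM in the lowest, 5.65 in the median and 7.54 in the highest CAC library at 8 weeks. It was 5.69, 5.90, 5.87, 5.65 and 5.98 TPM in NCAC muscle, and 5.24, 6.46, 6.18, 5.25 and 5.74 TPM in Con muscle. The NCAC libraries lay close together inside a wider CAC range. The log2 difference from Con was 0.00 (SE 0.10, 95% interval -0.20 to 0.21, adjusted p = 0.992 by limma), and -0.44 after rescaling (adjusted p = 0.000134). Mccc1 also shares exon bases with opposite-strand transcripts, of which Gm15952 had the highest mean at 0.613 TPM.

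Hibch and Hibadh act in succession on the valine chain, a hydrolase and a dehydrogenase. Hibch (chr1:52844929-52920986, plus strand) was 26.1 TPM in the lowest, 29.4 in the median and 40.0 in the highest CAC library at 8 weeks. It was 35.1, 39.2, 29.9, 30.2 and 33.6 TPM in NCAC muscle, and 31.2, 34.9, 34.1, 26.9 and 36.8 TPM in Con muscle. Of the 7 CAC libraries 3, at 26.1 to 26.8 TPM, lay below every NCAC and Con library, 3 lay within the Con range, and replicate 1 lay above every library of the other groups. The log2 difference from Con was -0.12 (SE 0.10, adjusted p = 0.262 by limma), and after rescaling -0.63 (adjusted p = 6.42e-06), the lowest adjusted p of the 10 genes on that scale.

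Hibadh (chr6:52546228-52640389, minus strand) was 113 TPM in the lowest, 138 in the median and 180 in the highest CAC library at 8 weeks. It was 113, 131, 130, 122 and 142 TPM in NCAC muscle, and 115, 140, 130, 117 and 120 TPM in Con muscle. Replicates 1 and 6 at 180 and 172 TPM stood above every library of the other groups. The log2 difference from Con was 0.16 (SE 0.09, adjusted p = 0.114 by limma), and without CAC replicate 3 it was called at 0.20 (adjusted p = 0.0407). After rescaling it was -0.36 (adjusted p = 0.000931), so the direction turned with the scaling.

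Between CAC and NCAC muscle the 10 genes gave a like picture. None was called at 2 weeks (limma, 0 at an unadjusted p under 0.05) against 0.063% of all genes. None was called at 4 weeks (1, Ivd, at an unadjusted p under 0.05) against 5.27% of all genes, and none at 8 weeks (0 unadjusted) against 72.1%. At 4 weeks Bckdha was 146, 104, 148, 124 and 149 TPM in CAC muscle and 165, 175, 157, 163 and 183 TPM in NCAC muscle, without overlap. Hibadh was 125, 119, 126, 117 and 126 TPM in CAC muscle and 139, 132, 129, 133 and 131 TPM in NCAC muscle, also without overlap. Of all genes 1.18% lay that way. Their log2 differences of -0.34 (adjusted p = 0.245 by limma) and -0.12 (adjusted p = 0.423) did not pass. After rescaling 8 of the 10 genes were called lower at 6 weeks and 9 at 8 weeks, against 21.7% and 24.3% of all genes.

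Without the 3 libraries that stand apart, 3 of the 10 genes were called lower in CAC than in NCAC muscle at 8 weeks on the deposited scale, against 3.5% of all genes lower. They were Bckdha by -0.65 (adjusted p = 6.28e-05 by limma), Ivd by -0.35 (adjusted p = 0.0298) and Hibch by -0.25 (adjusted p = 0.029). Leaving out 1 library was enough for some of these calls: Bckdha was called without CAC replicate 1 (-0.44, adjusted p = 0.0203) or replicate 6 (-0.46, adjusted p = 0.0137), and Hibch without CAC replicate 1. Ivd was called without CAC replicate 5 or 6 or NCAC replicate 1, and Ppm1k without CAC replicate 5 or NCAC replicate 4. At 6 weeks Bckdha was, without the 3 libraries, lower by -0.39 (adjusted p = 0.0178) and Bckdhb higher, 2 of 10 genes against 62% of all genes in either direction.

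Within CAC muscle, Ppm1k and Ivd were lower at 8 than at 2 weeks. These were 2 of 10 genes called lower and 0 higher, against 6.32% of all genes lower and 54.6% higher. Ppm1k was 4.24, 4.37, 4.91, 4.23, 7.48, 3.83 and 3.18 TPM at 8 weeks, against 5.93, 7.36, 5.6, 7.55 and 5.39 TPM at 2 weeks, and 6 of the 7 later libraries lay below all 5 earlier ones. Its log2 difference was -0.42 (SE 0.17, adjusted p = 0.0301 by limma). Ivd ran from 24.3 to 36.7 TPM at 8 weeks, against 44.0, 43.1, 31.9, 33.6 and 33.8 TPM at 2 weeks, with overlap, and its log2 difference was -0.32 (SE 0.13, adjusted p = 0.0328).

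Neither fall was shown to be particular to CAC muscle. Between 8 and 2 weeks Ppm1k differed by 0.11 in NCAC and -0.20 in Con muscle, and Ivd by -0.02 in NCAC and -0.16 in Con muscle, none of them called (limma, adjusted p = 1). None of the 10 was called between these weeks in NCAC or in Con muscle (0 at an unadjusted p under 0.05 in each), against 0% and 0.27% of all genes. The difference in the 8-week against 2-week change between CAC and Con was -0.21 for Ppm1k (SE 0.25, adjusted p = 0.492) and -0.16 for Ivd (SE 0.20, adjusted p = 0.511). None of the 10 genes passed that test (0 at an unadjusted p under 0.05), against 39% of all genes. The Ppm1k call was lost when CAC replicate 2 or 4 at 2 weeks or CAC replicate 6 or 7 at 8 weeks was left out. The Ivd call was lost without CAC replicate 1 or 2 at 2 weeks or CAC replicate 2, 3, 4 or 7 at 8 weeks. Without the 3 libraries that stand apart, Bckdha was lower at 8 than at 2 weeks by -0.70 (adjusted p = 5.73e-05 by limma), Ivd was lower by -0.42 (adjusted p = 0.015), and Ppm1k no longer passed (adjusted p = 0.0864).

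The late CAC libraries differed among themselves in which of the 10 genes were high. In the 3 libraries that stand apart, Bckdha was 217 to 243 TPM, against 77.8 to 142 TPM in the other 9 CAC libraries of 6 and 8 weeks. Bckdhb was 42.5 to 55.4 TPM against 24.1 to 34.9 TPM, and Hibadh 172 to 180 TPM against 113 to 140 TPM. These 3 genes lay higher in the 3 than in the 9 libraries without overlap, 3 of 10 against 28.1% of all genes, a share near the background. None of the 10 lay lower without overlap, against 5.7% of all genes. The other 7 overlapped, among them Bckdk, at 63.4 to 86.9 TPM against 84.5 to 107 TPM, and Dbt, at 14.3 to 25.4 TPM against 10.6 to 21.9 TPM.

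From the neighbouring lists 7 genes were set beside this split after their values had been seen. Of these, 3 lay higher in the 3 libraries without overlap, 1 lay lower and 3 overlapped. Of all genes 28.1% lay higher and 5.7% lower without overlap in the same split. Klf15, a transcription factor that glucocorticoids induce and that activates branched-chain amino acid breakdown in mouse muscle, was 88.5 to 233 TPM in the 3 libraries and 20.7 to 60.9 TPM in the other 9. Acadsb of the isoleucine branch was 52.4 to 66.4 TPM against 30.7 to 44.0 TPM, and Ppargc1a, a coactivator of mitochondrial genes, was 20.3 to 29.9 TPM against 10.2 to 19.3 TPM. Oxct1, an enzyme of ketone body use, lay lower, at 54.7 to 79.6 TPM against 86.0 to 127 TPM. Glul (408 to 745 against 93.6 to 501 TPM), Gpt2 (139 to 150 against 77.1 to 167 TPM) and Esrra (36.0 to 54.3 against 48.1 to 88.0 TPM) overlapped. The 3 libraries were picked on a component to which all genes contribute, so these ranges are a description and carry no test.

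**Figure D4:**
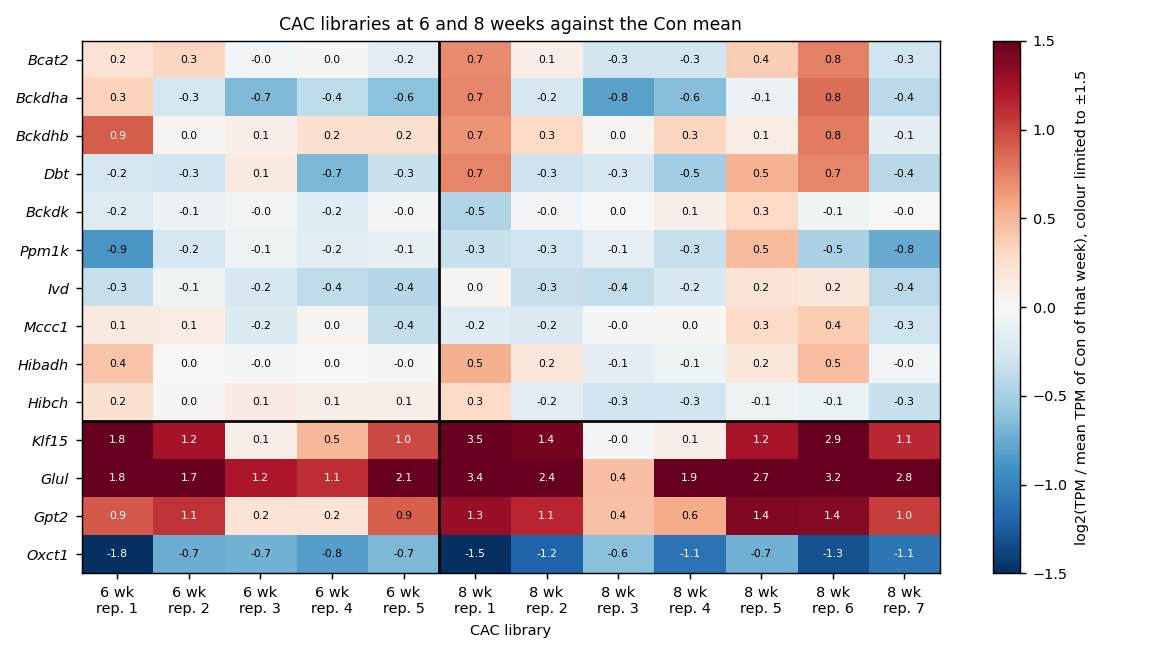
Log2 of TPM over the Con mean of the same week (colour and printed value) for the 10 genes and for Klf15, Glul, Gpt2 and Oxct1 (rows) in the 12 CAC libraries of 6 and 8 weeks (columns). Replicate 1 at 6 weeks and replicates 1 and 6 at 8 weeks are red for Bckdha, Bckdhb and Hibadh, while Bckdha is blue in all 9 other libraries.

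A list of 16 other genes of the same pathway or linked to it included Dld and Oxct1, an enzyme of ketone body use. Of these 16, 4 were called higher and 1 lower in CAC than in Con muscle at 6 weeks, against 60.7% of all genes higher and 3.26% lower. At 8 weeks 6 were called higher and 2 lower, against 69.4% and 5.09% of all genes. The gene called lower at 6 weeks was Oxct1, and those at 8 weeks were Oxct1 and Dld, neither of which serves this pathway alone. The median log2 differences were -0.08 and -0.01. Slc25a44, the carrier that brings branched-chain amino acids into mitochondria, was 22.8 ± 6.31 TPM in CAC muscle at 8 weeks (SD, n = 7) and 15.4 ± 2.51 TPM in Con muscle (SD, n = 5), a log2 difference of 0.52 (adjusted p = 0.00047 by limma). Acadsb, the acyl-CoA dehydrogenase of the isoleucine branch, was 44.6 ± 12.8 TPM against 26.7 ± 2.31 TPM, a difference of 0.68 (adjusted p = 4.22e-05). Slc25a44 and Acadsb were also higher at 6 weeks, by 0.48 (adjusted p = 0.00314) and 0.54 (adjusted p = 0.0022), and at both weeks without the 3 libraries that stand apart. Hsd17b10, a dehydrogenase of a later step of the isoleucine branch, was 92.4 ± 10.5 TPM in CAC muscle at 8 weeks (SD, n = 7) and 69.0 ± 4.67 TPM in Con muscle (SD, n = 5), a difference of 0.41 (adjusted p = 2.12e-05 by limma) that was 0.35 without those libraries (adjusted p = 8.25e-05). Also called higher at 8 weeks were Aldh6a1 by 0.51 (adjusted p = 0.0049) and Echs1 by 0.40 (adjusted p = 0.0175), and neither was called without the libraries that stand apart (adjusted p = 0.116 and 0.333).

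Oxct1, which activates ketone bodies by taking CoA from succinyl-CoA, was the gene of this list with the largest fall. It was 95.2 ± 21.2 TPM in CAC muscle at 8 weeks (SD, n = 7) and 197 ± 31.4 TPM in Con muscle (SD, n = 5), a log2 difference of -1.06 (adjusted p = 6.16e-07 by limma). At 6 weeks the difference was -0.92 (adjusted p = 5.34e-05). CAC libraries at 8 weeks reached at most 127 TPM and Con libraries were at least 153 TPM, so the groups did not overlap. After rescaling none of the 16 genes was called higher at 6 or 8 weeks, against 16.9% and 24.9% of all genes. Called lower were 10 and 11 of the 16, against 18.1% and 24.2% of all genes. Of 21 genes of pyruvate oxidation and the tricarboxylic acid cycle, 17 were called lower and 1 higher at 8 weeks on the deposited scale. Of all genes 5.09% were lower and 69.4% higher on that scale. The median log2 difference of the 21 was -0.39. After rescaling 20 of the 21 were called lower, against 24.2% of all genes.

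Of 6 genes that handle the amino nitrogen, Glul and Gpt2 rose in CAC muscle. Glul, glutamine synthetase, was 428 ± 221 TPM in CAC muscle at 8 weeks (SD, n = 7) and 68.6 ± 26.9 TPM in Con muscle (SD, n = 5), a log2 difference of 2.47 (adjusted p = 2.93e-07 by limma). The lowest CAC library, at 93.6 TPM, lay within the Con range, which reached 110 TPM. Gpt2, the mitochondrial alanine aminotransferase, averaged 120 TPM in CAC and 56.6 TPM in Con muscle, a difference of 1.06 (adjusted p = 4.42e-05). Gpt, the cytosolic form, was lower, at 20.6 against 28.6 TPM, by -0.46 (adjusted p = 0.00734). These 3 of the 6 were called at 8 weeks, against 74.5% of all genes. After rescaling 2 of the 6 were called higher, Glul and Gpt2, and 4 lower, among them Gpt by -0.96 (adjusted p = 1.13e-05). Of all genes 24.9% were called higher and 24.2% lower on that scale. At 6 weeks Glul was higher by 1.63 (adjusted p = 0.000805 by limma) and Gpt2 by 0.69 (adjusted p = 0.0112). These were 2 of the 6 called higher, against 60.7% of all genes. After rescaling only 1 of the 6 was called higher at 6 weeks and 3 were called lower, against 16.9% and 18.1% of all genes.

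Among 6 regulators of transcription, Klf15 and Ppard were called higher and Esrra lower at 8 weeks, 3 of 6 against 74.5% of all genes. After rescaling 2 of the 6 were called higher, again Klf15 and Ppard, against 24.9% of all genes. Called lower were 2, Esrra and Ppara, against 24.2% of all genes. Klf15 averaged 83.3 ± 79.7 TPM (SD) over 7 CAC libraries and 21.1 ± 2.62 TPM over 5 Con libraries, a log2 difference of 1.44 (adjusted p = 0.000109 by limma). Without the 3 libraries that stand apart it was 0.76 (adjusted p = 0.00494). Ppard, a nuclear receptor of fatty acid use, averaged 19.5 TPM against 9.10 TPM, a difference of 0.95 (adjusted p = 4.12e-06). Esrra, a nuclear receptor of mitochondrial genes, averaged 57.0 TPM against 72.9 TPM, a difference of -0.38 (adjusted p = 0.00682) that was -0.19 without those libraries (adjusted p = 0.14). No gene of these 3 lists was called between NCAC and Con muscle at 6 or 8 weeks, against 0% and 0.009% of all genes.

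**Figure D5:**
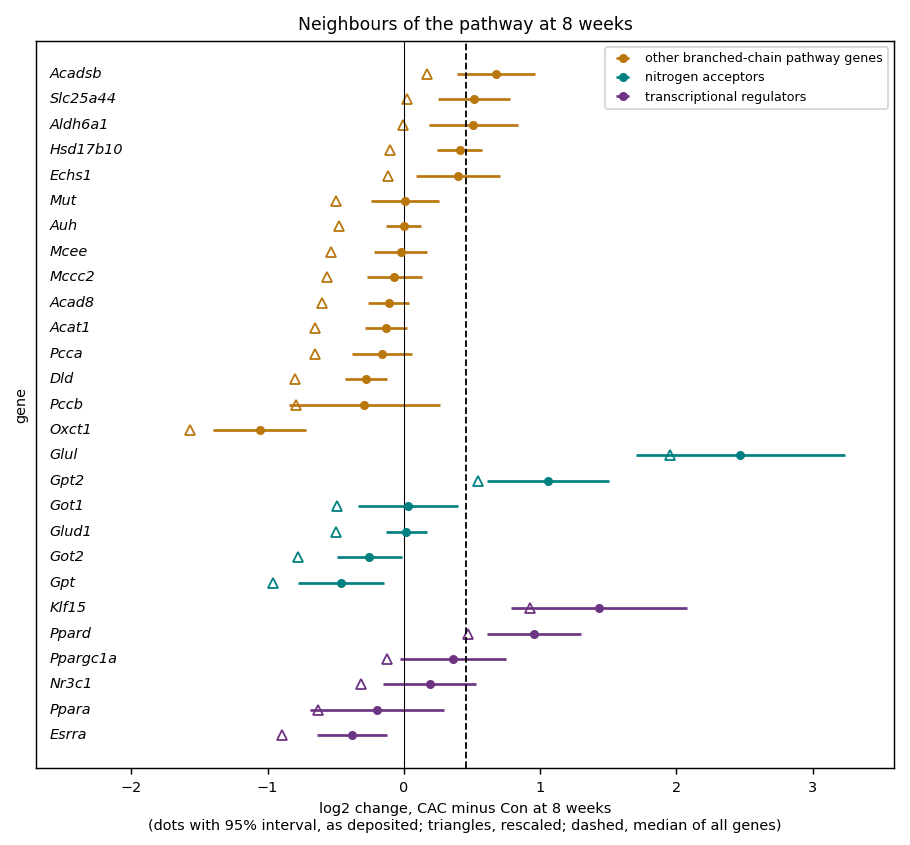
Log2 difference between CAC and Con muscle at 8 weeks (x axis) for 27 genes beside the 10 (y axis), in 3 lists by colour. Filled circles with bars are the deposited TPM with 95% intervals, open triangles the rescaled values, and the dashed line the median of all genes. Glul lies farthest right at 2.47 and Oxct1 farthest left at -1.06.

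The genes whose group means followed those of the 10 most closely were sought over the 12 group means of log2(TPM + 1), among 4910 genes averaging 10 TPM or more. For Bcat2 they were Lamb2 (Pearson r = 0.81), Fam220a (0.80) and Ppdpf (0.80). For Bckdha they were Lrpprc (0.91), Slc25a39 (0.91) and Prdx3 (0.90). For Bckdhb they were Gstm2 (0.96), Trap1 (0.95) and Adssl1 (0.95), and for Ivd they were Cox15 (0.96), Ndufaf1 (0.94) and Mpi (0.94). For Dbt they were Eno1 (0.90), Atxn2 (0.79) and Akr1b3 (0.79), for Hibadh Mrps2 (0.91), Dnajc30 (0.88) and Usp12 (0.86), and for Hibch Dnm1l (0.88), Casq2 (0.81) and Cox7b (0.78). For Ppm1k they were Fam210a (0.92), Chpt1 (0.91) and Pdha1 (0.89), and for Mccc1 Tmem70 (0.84), Fbxl17 (0.83) and Mrs2 (0.80). For Bckdk they were Vdac1 (0.89), Aes (0.85) and Bckdha (0.83). The 10 were also compared with each other, apart from Ppm1k and Mccc1, which averaged under 10 TPM. Bckdha followed Ivd (r = 0.865) and Bckdk (r = 0.834), and Bckdhb followed Hibadh (r = 0.781). Bckdha and Bckdhb were at r = -0.263. The 12 points share the same libraries and totals for all genes, so these values are a description.

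Markers of other cells also differed between CAC and Con muscle, and are given on the deposited scale only. On that scale the median log2 difference of all genes was 0.46 at 8 weeks, and 69.4% of all genes were called higher. Of all genes 38% lay higher in CAC than in Con muscle without overlap. The marker sums were not rescaled, and how much of their differences is this shift was not tested. At 8 weeks the 6 adipocyte markers, each with a higher median in CAC than in Con muscle, summed to 667 to 994 TPM in CAC muscle and 414 to 446 TPM in Con muscle. The 6 macrophage markers, all with a higher median, summed to 57.3 to 169 TPM in CAC muscle and 31.4 to 60.4 TPM in Con muscle. The 5 endothelial markers, 4 with a higher median, summed to 147 to 193 TPM in CAC muscle and 83.3 to 120 TPM in Con muscle. The 5 fibroblast markers, 3 with a higher median, summed to 270 to 633 TPM in CAC muscle and 186 to 335 TPM in Con muscle. The 5 neutrophil markers, 4 with a higher median and 0 with a lower one, summed to 11.6 to 54.4 TPM in CAC muscle and 4.64 to 7.81 TPM in Con muscle, without overlap. Only 2 of these 5 averaged 1 TPM or more over all libraries. The 4 satellite cell markers, all with a higher median, summed to 2.06 to 5.63 TPM in CAC muscle and 2.38 to 3.08 TPM in Con muscle. Only 1 of these 4, Vcam1, averaged 1 TPM or more, with medians of 1.414 and 1.395 TPM. The medians of Calcr were 0.078 TPM in both groups at this rounding. The 4 Schwann cell markers, also all with a higher median, summed to 18.1 to 51.8 TPM in CAC muscle and 10.3 to 73.8 TPM in Con muscle. Of the 5 slow and oxidative fibre markers 4 had a lower median. The 5 summed to 27.3 to 875 TPM in CAC muscle and 351 to 1206 TPM in Con muscle. Most of this was Myh2, with medians of 435 TPM in CAC and 885 TPM in Con muscle. The slow myosin Myh7 had medians of 0.619 and 0.640 TPM. Of the 5 red blood cell markers 4 had a lower median, with sums of 147 to 14744 TPM in CAC muscle and 324 to 1169 TPM in Con muscle. No marker of these lists was at 0 in every library of the week, and their part in the differences of the 10 genes was not tested. In whole muscle, fewer cells of a type and less RNA per cell cannot be told apart.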

How the data were processed

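The 10 genes, the gene lists and the tests were chosen with earlier results of these data known. RNA was prepared with a stranded mRNA kit and sequenced by Illumina, per the labels' protocols. The authors deposited TPM values for 47643 genes in 62 libraries, each column summing to 1000000. Reads were placed on mm10, per the submitters' processing notes. The aligner, counter and strand setting were not given in the sources used here. TPM keeps no depth, so reads were estimated from the steps between low values and exon lengths of GENCODE M21, and a median of 84.0% of low values (lowest library 82.3%) came out whole within 0.05 reads. This was a guide, and no count test was run. Because TPM fixes each total, a lower share of abundant transcripts raises all other genes.

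Values were transformed as log2(TPM + 1), which understates changes of weakly expressed genes. All 62 libraries entered 1 linear model with 12 group means (limma 3.58.1, R 4.3.3, empirical Bayes with trend, 50 residual degrees of freedom) over 11107 of 23019 genes above 0, with p adjusted over all genes within each of 18 contrasts. The spread of a gene is taken as equal in all groups, while CAC libraries at 8 weeks varied more for several of the 10 genes, so SE and p may be too small there. Size factors were 0.614 to 1.47. Ratios were tested by exact two-sided permutation, 16 tests in all. Bckdhb over Bckdha was added after seeing the values and is described without a test. Alternative settings were size factors, a pseudocount of 0.1, no filter, no mitochondrially encoded genes (11094 genes), only the weeks compared, the replicate number as a block, a spread per group, sets of libraries left out, and each library left out in turn. Ratios without the 3 libraries farthest along principal component 1 were added after seeing the data. Named beside the 10 are genes of the fixed lists with the smallest adjusted p, and for each of the 10 the 3 genes with the highest r over group means. Ppargc1a and Ppara, outside that rule, were named after their values were seen. The lists' counts include 1 gene that is not reported here. The fit was checked on simulated libraries in which the changes were known. Each gene was given the same spread in all groups there, so the check does not cover the wider spread of CAC at 8 weeks. Coordinates are from GENCODE M21 (GRCm38). Python 3.11.15, numpy 2.4.6, pandas 2.3.3, scipy 1.17.1 and matplotlib 3.10.9 were used.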

Additional observations from a re-analysis of the deposited data

Results flagged for a closer look

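Of 120 tests of the highest or lowest library within a group, 9 exceeded Dixon's 95% critical value, and chance alone gives about 1 in 20. CAC replicate 1 at 6 weeks accounted for 3 of them. It held 55.39 TPM of Bckdhb, where the other 4 libraries of its group were at 30.5 to 34.9 TPM. It held 175.1 TPM of Hibadh against 128 to 131 TPM in the others, and 3.142 TPM of Ppm1k against 4.84 to 5.46 TPM. At 8 weeks CAC replicate 1 held 39.97 TPM of Hibch, where the other 6 libraries were at 26.1 to 31.0 TPM, and CAC replicate 5 held 7.478 TPM of Ppm1k against 3.18 to 4.91 TPM.

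In the groups without cachexia, NCAC replicate 5 at 8 weeks held 190.9 TPM of Bckdha against 148 to 159 TPM in the others of its group. NCAC replicate 4 at 6 weeks held 18.77 TPM of Hibch against 30.0 to 33.8 TPM. Con replicate 2 at 6 weeks held 50.84 TPM of Bcat2 against 36.7 to 39.5 TPM, and Con replicate 2 at 8 weeks held 32.57 TPM of Bckdhb against 23.9 to 26.3 TPM.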

How the results depend on the processing

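On the count of the 10 genes called between CAC and Con muscle, size factors gave 8 at 6 weeks and 8 at 8 weeks, all lower, against 0 and 1. Leaving out the mitochondrially encoded genes gave 4 and 5. At 6 weeks the replicate block, a spread per group and leaving out the 3 libraries farthest out gave 1 each, and at 8 weeks a fit of only the weeks compared and a spread per group gave 0. Leaving out single libraries gave 0 to 1 at 6 weeks and 0 to 2 at 8 weeks. Between CAC and NCAC, size factors gave 1 at 4 weeks, 8 at 6 weeks and 9 at 8 weeks. At 4 weeks the rescaled median log2 difference of the 10 was -0.31, against 0.0045 for all genes. The fit without mitochondrially encoded genes gave 3 and 5 at 6 and 8 weeks. The medians of the 10 were then -0.22 and -0.30, against 0.23 and 0.24 for all genes. The fit without the 3 libraries gave 2 and 3 at 6 and 8 weeks. Only the weeks compared gave 1 at 4 weeks (Bckdha, adjusted p = 0.0484 by limma), and single libraries left out gave 0 to 1 at 6 weeks and 0 to 2 at 8 weeks. Between 8 and 2 weeks in CAC, no filter and a spread per group gave 0, size factors 8, no mitochondrially encoded genes 4, and single libraries left out 0 to 3, against 2. The medians of the 10 were -0.43 with size factors and -0.25 without mitochondrially encoded genes, against 0.01 and 0.18 for all genes. For the difference of that change from Con, size factors gave 4 and no mitochondrially encoded genes 1, against 0. The medians of the 10 were there -0.43 and -0.25, against 0.01 and 0.20 for all genes. Where no share of all genes called is given for a setting, its count cannot be read as particular to the 10 genes. The cause was not tested.

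Between CAC and Con, single genes changed sign with size factors at 6 weeks (Hibadh -0.36, Hibch -0.30) and at 8 weeks (Bckdhb -0.21, Dbt -0.41, Mccc1 -0.44, Hibadh -0.36), and Mccc1 was -0.27 without mitochondrially encoded genes. Between CAC and NCAC they did so at 6 weeks (Bcat2 -0.44, Bckdhb -0.04, Mccc1 -0.32, Hibadh -0.35, Hibch -0.37) and at 8 weeks (Bckdhb -0.31, Dbt -0.43, Hibadh -0.37), and between 8 and 2 weeks in CAC Hibadh was -0.29. A change of sign was counted where the gene was called in either setting. The log2 ratio of Bckdhb to Bckdha at 6 weeks stayed between 0.54 and 0.68 against Con and between 0.62 and 0.75 against NCAC with single libraries left out. It ranged from 0.062 to 0.19 at 2 weeks against Con and from 0.38 to 0.55 at 8 weeks against NCAC. Without the 3 libraries at 8 weeks it was 0.56 against Con and 0.65 against NCAC, against 0.38 and 0.48 with them, since the CAC libraries left out there, replicates 1 and 6, hold the lowest ratios of their group, 0.188 each. Replicate numbers did not pair libraries: of 60 same-numbered pairs 15 had correlated deviations over 0.1 (range -0.332 to 0.332). With the replicate block 1 of the 10 genes was called between CAC and NCAC at 8 weeks, Bckdha at -0.42 (adjusted p = 0.0232 by limma).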
